A study of Mus musculus with 14 samples.

Results

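The genes described here are 35 mouse genes of the interferon response and of antigen presentation, taken as a list of names; no measured value enters the rule, though the list was drawn up with earlier results of these data known. They comprise 22 interferon-induced genes, 7 genes of the class I antigen presentation pathway and 6 genes of the class II pathway. Probes on the array were tied to genes through the accession printed for each probe, and 32 of the 35 genes had at least 1 probe: 20 interferon-induced, 7 class I and 5 class II genes. For Mx1, Mx2 and H2-Eb1 no probe was matched, and they were not analysed here. All 32 passed the filter on dim probes, among 31257 genes tested of 33269 with a probe. Of the 31257, 16267 had a gene symbol. The others were accessions without a symbol, each counted as a gene, and shares of all genes below cover both kinds.

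RNA came from FDCPmix, a multipotent mouse haematopoietic cell line of bone marrow origin that depends on interleukin-3. Every sample was grown in the same maintenance culture with horse serum and IL-3 conditioned medium, with no interferon named in the labels, and was measured on a single-colour (Cy3) Agilent array. Fractions were sorted by flow cytometry on the surface proteins Kit, Gr1 and Sca1: Kit+Gr1-Sca1hi (3 arrays, titled SR Sca-1hi), Kit+Gr1-Sca1lo (3 arrays, titled SR Sca-1lo), Kit-Gr1- (3 arrays, titled ECP) and Gr1+ (3 arrays, titled MCP). A further 2 arrays held the unsorted bulk culture. The design text calls these biological replicates. All come from 1 cell line, so the comparisons describe that line in culture and not marrow from animals. Kit+Gr1- below stands for the mean of Sca1hi and Sca1lo, 6 arrays in all.

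A level is the log2 processed signal of a probe minus the 75th percentile of its array, so that 0 is the brightness of the 75th percentile spot. A difference is the difference of 2 mean levels, on the log2 scale, with its standard error (SE) from a limma fit over the 12 sorted arrays. A gene was called higher or lower where its Benjamini-Hochberg adjusted p over all 31257 genes was below 0.05. Levels of different genes come from different probes and were not set against each other.

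The arrays differed in quality. On 3 sorted arrays, Sca1hi replicate 3, Sca1lo replicate 3 and Gr1+ replicate 3, the log2 interquartile range of the signal was 2.37, 3.42 and 3.04, against 4.17 to 4.92 on the 9 other sorted arrays. These 3 are called compressed below. Unfractionated replicate 1 stood further apart, with a range of 1.78 and a median signal of 5180, against 122 to 801 on the other 13 arrays, and its correlation with unfractionated replicate 2 was 0.503. Among the genes of the sorting antigens, Kit fell by 2.21 ± 0.22 (SE) on the log2 scale from Kit+Gr1- to Kit-Gr1- (adjusted p = 0.000562), and Ly6a, which encodes Sca1, was not called between Sca1hi and Sca1lo (difference 2.32 ± 0.31, adjusted p = 0.148, or 0.00479 with the replicate number as a block). In Gr1+ against Kit+Gr1-, Ly6a and Ly6c1 were called higher, where 4.36% of all genes were. Kit was not called there, with a difference of 0.29. The median difference over all genes was -0.23 for Kit-Gr1- against Kit+Gr1-, -0.04 for Gr1+ against Kit+Gr1- and -0.20 for Kit-Gr1- against Gr1+. With the array median, quantile normalization or the deposited values in place of the 75th percentile these medians ran from -0.46 to 0.09, from -0.24 to -0.02 and from -0.24 to 0.10. The share of calls that were higher, 57.5% for Gr1+ against Kit+Gr1-, was 80.9%, 45.4% and 35.7% under the same 3 settings, and for Kit-Gr1- against Kit+Gr1- it was 82.2% against 95.5%, 69.3% and 56.6%.

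Type I interferons bind a receptor of Ifnar1 and Ifnar2 and interferon gamma one of Ifngr1 and Ifngr2. The receptors activate the kinases Jak1, Jak2 and Tyk2, and these activate transcription factors, Stat2 and Irf9 among them, which bind response elements in the promoters of antiviral genes such as Isg15 and the Ifit and Oas families. Interferon gamma also induces Irf1, Ciita and the genes that cut and load peptides for presentation: the immunoproteasome subunits Psmb8, Psmb9 and Psmb10, the peptide transporter Tap1 and Tap2, and, through Ciita, the class II chains. In bone marrow, interferons are known to act on stem and progenitor cells as well as on mature myeloid cells.

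Promoter windows of 300 bases, from 250 before to 50 after the gene start (RefSeq, GRCm38.p6), were at hand for 26 of the 32 measured genes. Dhx58, Usp18, Tap2, H2-Ab1, Cd74 and Ciita had no window. The core of the interferon-stimulated response element, GAAA followed after any 2 bases by GAAA, on either strand, lay in the windows of 10 of the 26: Isg15, Ifit1, Ifit3, Stat2, Oas1a, Rsad2, Ifih1, Eif2ak2, Bst2 and B2m. Of all 27025 genes with such a window, 3.99% held it. The following stretches are shown because they hold the motif that the complex of Stat2 and Irf9 is known to bind. Each is read 5′ to 3′ on the strand of its gene, with the matches in capitals.
Isg15 (chr4:156200860-156200911, minus strand, 3 overlapping matches, the first beginning 78 bases before the gene start): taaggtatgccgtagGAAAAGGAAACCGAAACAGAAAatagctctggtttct
Ifit1 (chr19:34640770-34640828, plus strand, 2 matches, from 104 bases before the start): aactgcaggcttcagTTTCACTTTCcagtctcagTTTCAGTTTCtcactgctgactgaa
Ifit3 (chr19:34583358-34583431, plus strand, 2 matches, from 156 bases before the start): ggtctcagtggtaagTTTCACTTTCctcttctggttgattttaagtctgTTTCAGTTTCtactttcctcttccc
Rsad2 (chr12:26456548-26456587, minus strand, 1 match, 120 bases before the start): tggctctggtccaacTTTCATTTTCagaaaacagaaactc
Oas1a (chr5:120907526-120907560, minus strand, 2 overlapping matches, from 20 bases before the start): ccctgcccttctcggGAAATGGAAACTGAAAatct
Bst2 (chr8:71537572-71537617, minus strand, 2 overlapping matches, from 130 bases before the start): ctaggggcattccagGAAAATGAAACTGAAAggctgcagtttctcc
B2m (chr2:122147533-122147572, plus strand, 1 match, 139 bases before the start): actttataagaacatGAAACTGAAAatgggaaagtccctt
Stat2 (chr10:128270261-128270300, plus strand, 1 match, 222 bases before the start): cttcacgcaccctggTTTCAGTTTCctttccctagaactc

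A second motif, the gamma-activated site TTCNNNGAA of interferon gamma responses, reads the same on both strands. It lay in the windows of 7 of the 26 genes (Ifit2, Irf1, Oas1a, Eif2ak2, Bst2, Ifi35 and Psmb8) and of 9.55% of all genes. Oas1a, Eif2ak2 and Bst2 held both motifs, and in Bst2 the matches overlap. The sites of a regulator and of an immunoproteasome subunit are shown, each with 1 match in capitals.
Irf1 (chr11:53769909-53769947, plus strand, 90 bases before the start): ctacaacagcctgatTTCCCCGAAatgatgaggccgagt
Psmb8 (chr17:34198083-34198121, plus strand, 97 bases before the start): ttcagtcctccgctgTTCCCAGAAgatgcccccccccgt

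Psmb9 and Tap1 are neighbours that are read in opposite directions from starts 225 bases apart, so that this interval is the start of both promoters. The interval is shown because the levels of these genes are set side by side below. Capitals mark the letters CCAAT, the core of the Y box, which 12 of the 26 windows and 41.1% of all genes' windows held.
Psmb9-Tap1 (chr17:34187331-34187555, plus strand): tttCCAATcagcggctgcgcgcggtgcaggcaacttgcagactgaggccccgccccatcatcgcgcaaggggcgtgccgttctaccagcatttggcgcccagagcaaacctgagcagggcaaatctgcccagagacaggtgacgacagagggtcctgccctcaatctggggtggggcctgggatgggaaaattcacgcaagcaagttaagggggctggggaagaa

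The first comparison asks how the genes differed between the Gr1+ fraction and the Kit+Gr1- cells. Of the 32 genes, 4 passed the test, where 7.59% of all genes did: Dhx58 was higher in Gr1+ (4.36% of all genes were called higher), and Usp18, Psmb10 and H2-Ab1 were lower (3.22% of all genes). The called genes thus went in both directions, and the interferon-induced list gave 1 call each way among 20, with a median difference of 0.08 against -0.04 over all genes. The arrays of Usp18 and H2-Ab1 were lower without overlap, 2 of the 32, where 10.1% of all genes had arrays without overlap and 4.01% lower ones. The class I genes had a median difference of -0.65 and the class II genes one of -0.24. In bulk RNA of sorted cells, fewer cells with a transcript and less of it per cell cannot be told apart. The fractions also differ in cell type. The summed level of 6 neutrophil marker genes was 9.25 to 9.71 on the Gr1+ arrays and 4.65 to 7.41 on the Kit+Gr1- arrays, all 6 being called higher. For 5 eosinophil markers the summed level was 6.76 to 8.14 against -1.06 to 1.72, with 4 called higher, and for 8 macrophage markers 4.76 to 5.24 against 2.05 to 2.50, with 3 called higher. The part of these cell types in the differences below was not tested.

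**Figure D1:**
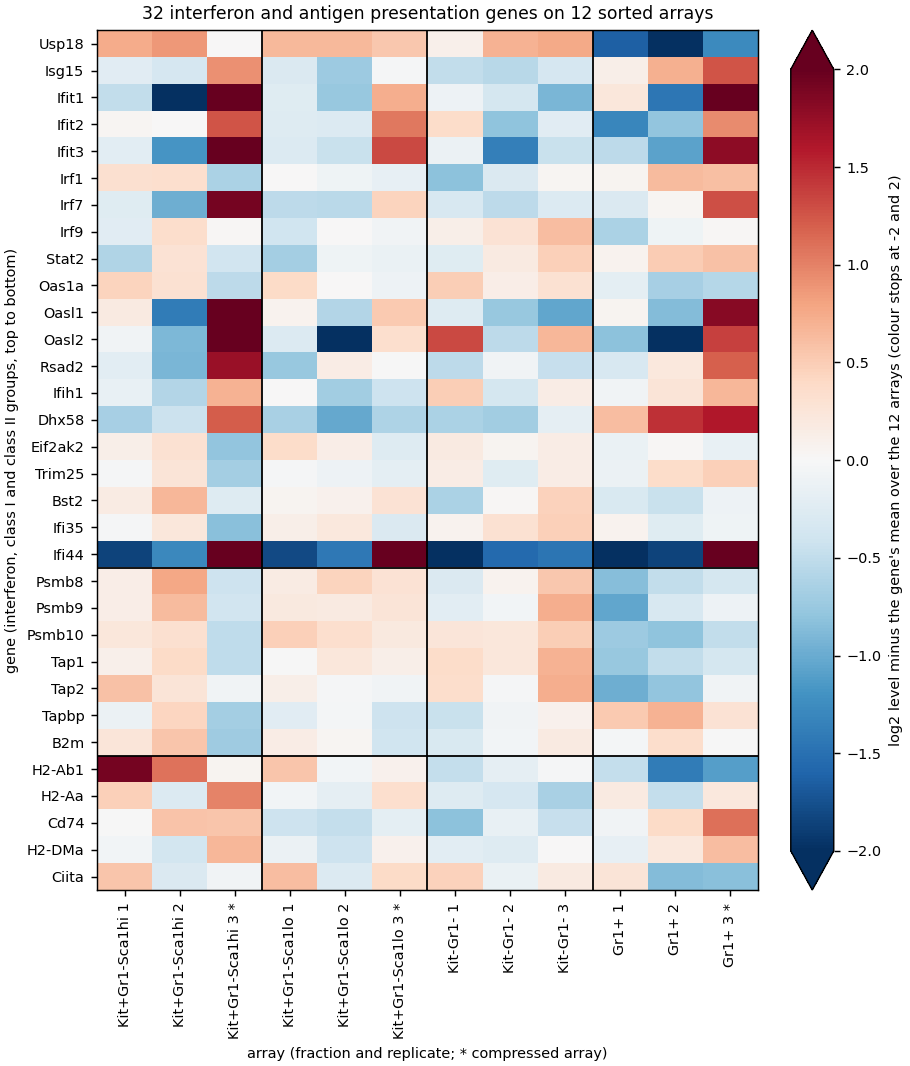
Level of each of the 32 measured genes on each of the 12 sorted arrays, as log2 level minus the mean of that gene over the 12 arrays, with colour limits at -2 and 2. Rows are genes by list, columns are arrays by fraction, and an asterisk marks the 3 compressed arrays; Usp18 and the class I genes from Psmb8 to Tap2 are low on the Gr1+ arrays, and the dim interferon-induced genes are high on the compressed arrays.

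Usp18 encodes the protease that takes the ubiquitin-like protein Isg15 off its targets and that also damps signalling at the type I interferon receptor. Its level was 1.01, 1.13 and 0.27 on the Sca1hi arrays, 0.90, 0.91 and 0.80 on the Sca1lo arrays, and 0.36, 0.96 and 1.02 on the Kit-Gr1- arrays. On the Gr1+ arrays it was -1.37, -1.82 and -1.01. Every Gr1+ array lay below every array of the other fractions, by more than 1 log2 unit at the nearest. Usp18 was 4.72-fold lower in Gr1+ than in Kit+Gr1- (difference -2.24 ± 0.23 SE, 95% interval -2.74 to -1.73, adjusted p = 7.18e-05). Within the 3 slides that held both fractions the difference was -2.33, -2.73 and -2.14. Over the 25 alternative fits it ran from -2.60 to -2.03, with adjusted p from 2.58e-07 to 0.00829, and it was called in each of them. Usp18 was read by 1 probe, so the fits that changed the filter or averaged probes could not move its difference. On the unfractionated arrays the level was -0.73 and 0.51, between the Gr1+ range and most of the other arrays.

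Isg15 itself, the ubiquitin-like protein that Usp18 removes, did not pass the test. Its level was -2.94, -3.06 and -1.80 in Sca1hi, -3.00, -3.44 and -2.74 in Sca1lo, -3.21, -3.28 and -3.05 in Kit-Gr1- and -2.61, -2.01 and -1.46 in Gr1+. The Gr1+ arrays lay above all Kit-Gr1- and Sca1lo arrays, and overlapped Sca1hi through its compressed replicate 3. The difference from Kit+Gr1- was 0.80 ± 0.35 (adjusted p = 0.254), and with the slide as a block 1.06 (adjusted p = 0.0343). For the pair of enzyme and substrate the estimates therefore had opposite signs, and 1 of the pair was called.

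Dhx58 encodes an RNA helicase (LGP2) that tunes the signal of the cytoplasmic RNA sensors. Its level was -2.57, -2.34 and -0.69 in Sca1hi, -2.55, -2.92 and -2.52 in Sca1lo, -2.54, -2.61 and -2.09 in Kit-Gr1- and -1.29, -0.45 and -0.31 in Gr1+. Gr1+ was the highest fraction, and its arrays lay above those of the other fractions apart from the compressed Sca1hi replicate 3. Dhx58 was 3.00-fold higher in Gr1+ than in Kit+Gr1- (difference 1.58 ± 0.38, interval 0.76 to 2.40, adjusted p = 0.0209). Within slides 1, 2 and 3 the difference was 1.27, 2.47 and 2.04, and without the compressed arrays it was 1.73 (adjusted p = 0.00467). The call rested on single arrays: it was lost without Sca1lo replicate 2 (1.52, adjusted p = 0.0509), Gr1+ replicate 2 (1.47, adjusted p = 0.14) or Gr1+ replicate 3 (1.40, adjusted p = 0.0853), and also on the deposited values (1.39, adjusted p = 0.18), with all 14 arrays fitted (adjusted p = 0.12) and without a trend (adjusted p = 0.0516). Over all alternatives adjusted p ran from 2.25e-05 to 0.18.

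The transcription factors of the response showed smaller differences, and none of the 4 measured was called. Stat2, which carries the type I signal to the nucleus, had mean levels of 0.13 ± 0.46 (SD, n = 3) in Sca1hi, 0.06 ± 0.33 in Sca1lo, 0.50 ± 0.36 in Kit-Gr1- and 0.75 ± 0.28 in Gr1+. Its difference of 0.65 ± 0.24 from Kit+Gr1- had an adjusted p of 0.144, 0.0221 with the replicate number as a block and 0.0111 with the slide as a block (0.55). Irf1, an activator of class I genes, was at 2.80 ± 0.33 in Gr1+, 2.38 ± 0.56 in Sca1hi, 2.29 ± 0.09 in Sca1lo and 2.02 ± 0.43 in Kit-Gr1-. The order of the fractions was thus the same for both genes at its top, with Gr1+ first, and the neighbouring fractions overlapped. Irf1 gave 0.47 ± 0.25 (adjusted p = 0.421), Irf7, which amplifies the type I response, 0.33 ± 0.55, and Irf9, the DNA-binding partner of Stat2, -0.18 ± 0.20, against 0.05 with its other probe.

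Among the antiviral effectors, Oas1a, an oligoadenylate synthetase that activates the RNA-cutting enzyme RNase L, read 0.98, 0.83 and 0.00 in Sca1hi, 0.92, 0.54 and 0.43 in Sca1lo, 1.02, 0.66 and 0.84 in Kit-Gr1- and 0.34, -0.13 and -0.04 in Gr1+. Gr1+ was low, with 1 array of Sca1hi inside its range. The difference from Kit+Gr1- was -0.56 ± 0.22 (adjusted p = 0.189), against -0.71 with the slide as a block (adjusted p = 0.00378) and -0.71 without the compressed arrays (adjusted p = 0.0382). Eif2ak2, the kinase PKR that stops translation on double-stranded RNA, had a difference of -0.07 ± 0.23. Bst2, the membrane protein tetherin that holds virus particles at the cell surface, had -0.45 ± 0.24 (adjusted p = 0.446). Ifi35 gave 0.01 ± 0.22, and Trim25, a ubiquitin ligase of the RNA-sensing pathway, gave 0.37 ± 0.21. Neither Ifih1, an RNA sensor (0.47 ± 0.31), nor Rsad2, the antiviral enzyme viperin (0.36 ± 0.53), was called.

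**Figure D2:**
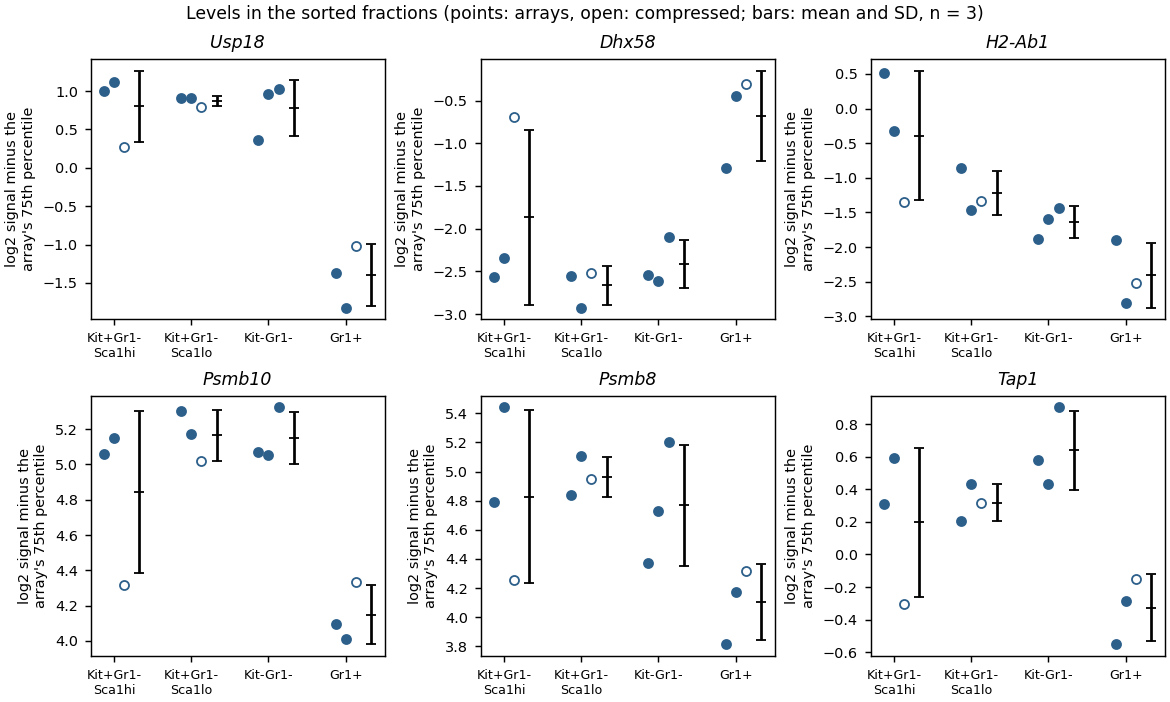
Level (log2 signal minus the 75th percentile of the array) of Usp18, Dhx58, H2-Ab1, Psmb10, Psmb8 and Tap1 on each array by fraction, with the mean and SD of each group of 3; open points are the compressed arrays. Usp18 in Gr1+ lies between -1.82 and -1.01, below all other sorted arrays, and Psmb10 in Gr1+ lies between 4.01 and 4.33.

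Of the classical interferon-induced genes, Ifi44, Ifit1 and Oasl2 were too dim to compare. Ifi44 was well above background on 3 of the 12 sorted arrays, the compressed ones, where its level was 0.06, -2.49 and -0.71; on the 9 others it was -8.42 to -7.49. Ifit1, which binds viral RNA lacking the host cap, was well above background on 6 of 12 arrays, with levels of -2.36, -4.82 and -2.92 on the compressed arrays and -7.99 to -5.31 on the others. For Oasl2 the same was true of 5 of 12 arrays, with no Sca1lo array among them, and levels of -2.30, -5.09 and -4.07 against -7.56 to -4.12. For Ifi44 and Ifit1 the 3 compressed arrays held the highest values of the 12, whatever their fraction, while for Oasl2 their values overlapped those of the others. Their differences between Gr1+ and Kit+Gr1- had the widest errors of the set: -0.05 ± 2.08 for Ifi44, 0.48 ± 1.16 for Ifit1 and -0.53 ± 1.04 for Oasl2. The probes used for Ifit3, Oasl1 and Ifit2 were well above background on 8, 11 and 12 of the 12 arrays. Ifit3 gave -0.23 ± 0.91, Oasl1 0.16 ± 0.76 and Ifit2 -0.69 ± 0.53. No difference in these genes was detectable with these arrays.

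How the genes read on the compressed arrays could be counted over the whole set. Each compressed array was set against the mean of the other 2 arrays of its fraction. These arrays were singled out by their narrow range, and levels are counted from the 75th percentile. Genes below that percentile were therefore bound to read higher on them on average. The same counts over all genes are not given here. Of the 16 genes whose level was on average below the 75th percentile, 13 were higher on all 3 compressed arrays. The medians of these 16 were 1.50 in Sca1hi, 0.47 in Sca1lo and 1.10 in Gr1+. Of the 16 genes above that percentile, 0 were higher on all 3 and 5 were lower on all 3. Their medians were -0.80 in Sca1hi, -0.12 in Sca1lo and 0.27 in Gr1+. Usp18 lay in the second group, at -0.79, -0.11 and 0.58 in the same order. Its difference between Gr1+ and Kit+Gr1- was -2.24, and the part of compression in it was not tested. Without the compressed arrays Usp18 differed by -2.58 (adjusted p = 0.000321).

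**Figure D3:**
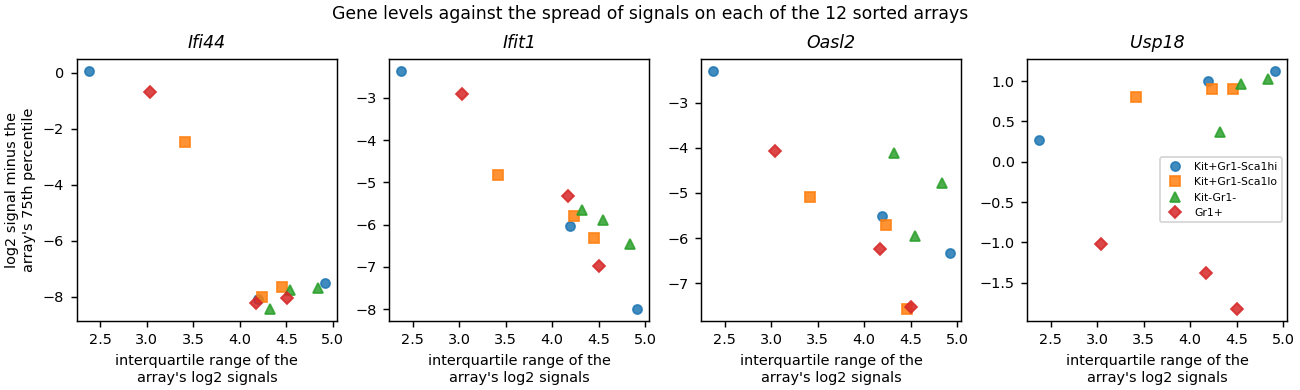
Level of Ifi44, Ifit1, Oasl2 and Usp18 on each array against the log2 interquartile range of that array's signal; colours give the fraction. Ifi44 and Ifit1 are highest on the arrays with the narrowest range, whatever the fraction, while the Gr1+ points of Usp18 lie apart from the others at all ranges.

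The class I genes of peptide cutting and transport were lower in Gr1+ by their estimates, and 1 of 7 passed the test. Psmb10, a catalytic subunit of the immunoproteasome, had levels of 5.06, 5.15 and 4.32 in Sca1hi, 5.30, 5.17 and 5.02 in Sca1lo, 5.07, 5.06 and 5.32 in Kit-Gr1- and 4.10, 4.01 and 4.33 in Gr1+. The Gr1+ arrays lay below all others, apart from Sca1hi replicate 3, a compressed array, at the top of their range. Psmb10 was 1.81-fold lower in Gr1+ than in Kit+Gr1- (difference -0.85 ± 0.20, interval -1.29 to -0.42, adjusted p = 0.018). The difference was -1.08, -1.16 and -0.82 within slides 1, 2 and 3 and -1.12 without the compressed arrays (adjusted p = 0.001). It was not called without Sca1lo replicate 1 (-0.82, adjusted p = 0.0513), Gr1+ replicate 1 (-0.83, adjusted p = 0.0836) or Gr1+ replicate 2 (-0.79, adjusted p = 0.138), nor with the array median as scale (-0.83, adjusted p = 0.831) or all 14 arrays fitted (adjusted p = 0.754).

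The other immunoproteasome subunits and the transporter gave similar estimates that missed the threshold. Psmb8 was at 4.79, 5.44 and 4.25 in Sca1hi, 4.84, 5.11 and 4.95 in Sca1lo and 3.81, 4.17 and 4.32 in Gr1+, a difference of -0.79 ± 0.25 (adjusted p = 0.0873). Psmb9 was at 3.91, 4.41 and 3.39 in Sca1hi, 3.97, 3.95 and 4.04 in Sca1lo and 2.73, 3.46 and 3.68 in Gr1+ (-0.65 ± 0.27, adjusted p = 0.223). Tap1, transcribed from the other side of the interval printed above, was at 0.31, 0.59 and -0.30 in Sca1hi, 0.21, 0.43 and 0.32 in Sca1lo and -0.55, -0.28 and -0.15 in Gr1+ (-0.59 ± 0.20, adjusted p = 0.112). In each of these 3 genes Gr1+ was the lowest fraction, and the compressed Sca1hi replicate 3 was the lowest Kit+Gr1- array. Tap2, the other chain of the transporter, was at 3.29, 2.97 and 2.63 in Sca1hi, 2.83, 2.69 and 2.64 in Sca1lo and 1.73, 1.93 and 2.64 in Gr1+ (-0.74 ± 0.23, adjusted p = 0.0701). With the slide as a block, Psmb8 (-1.02, adjusted p = 0.0016), Psmb9 (-0.85, adjusted p = 0.00909), Psmb10 (-1.03, adjusted p = 0.000556), Tap1 (-0.75, adjusted p = 0.00659) and Tap2 (-0.85, adjusted p = 0.0132) were all called lower, where 10.2% of all genes were. These are 5 of the 11 genes of the set called under that block, where 16.5% of all genes were. Without the compressed arrays 8 of the 32 genes were called, where 13.4% of all genes were, among them Psmb10 and 3 others of the class I list: Psmb8 differed by -1.05 (adjusted p = 0.0252), Tap1 by -0.80 (adjusted p = 0.02) and Tap2 by -1.12 (adjusted p = 0.00722), where 8.37% of all genes were called lower.

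The 2 genes of peptide loading gave estimates of the other sign and were not called. Tapbp encodes tapasin, which tethers the transporter to empty class I molecules. Its level was 3.82, 4.35 and 3.24 in Sca1hi, 3.70, 3.89 and 3.51 in Sca1lo, 3.48, 3.85 and 4.01 in Kit-Gr1- and 4.44, 4.62 and 4.21 in Gr1+. Gr1+ was the highest fraction, with 1 Sca1hi array inside its range, and the difference of 0.67 ± 0.23 was not called (adjusted p = 0.103). Its other probe gave 0.24. B2m, the light chain of every class I molecule, had mean levels from 4.99 ± 0.29 in Sca1lo to 5.17 ± 0.22 in Gr1+, and the difference of 0.12 ± 0.26 did not pass. The median difference of the 7 class I genes was -0.63 with array median scaling, -0.72 with quantile normalization and -0.85 on the deposited values, so its sign held under these scalings; the number of the 7 called was 0, 5 and 6, of which 1 was higher under each of the last 2 settings.

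**Figure D4:**
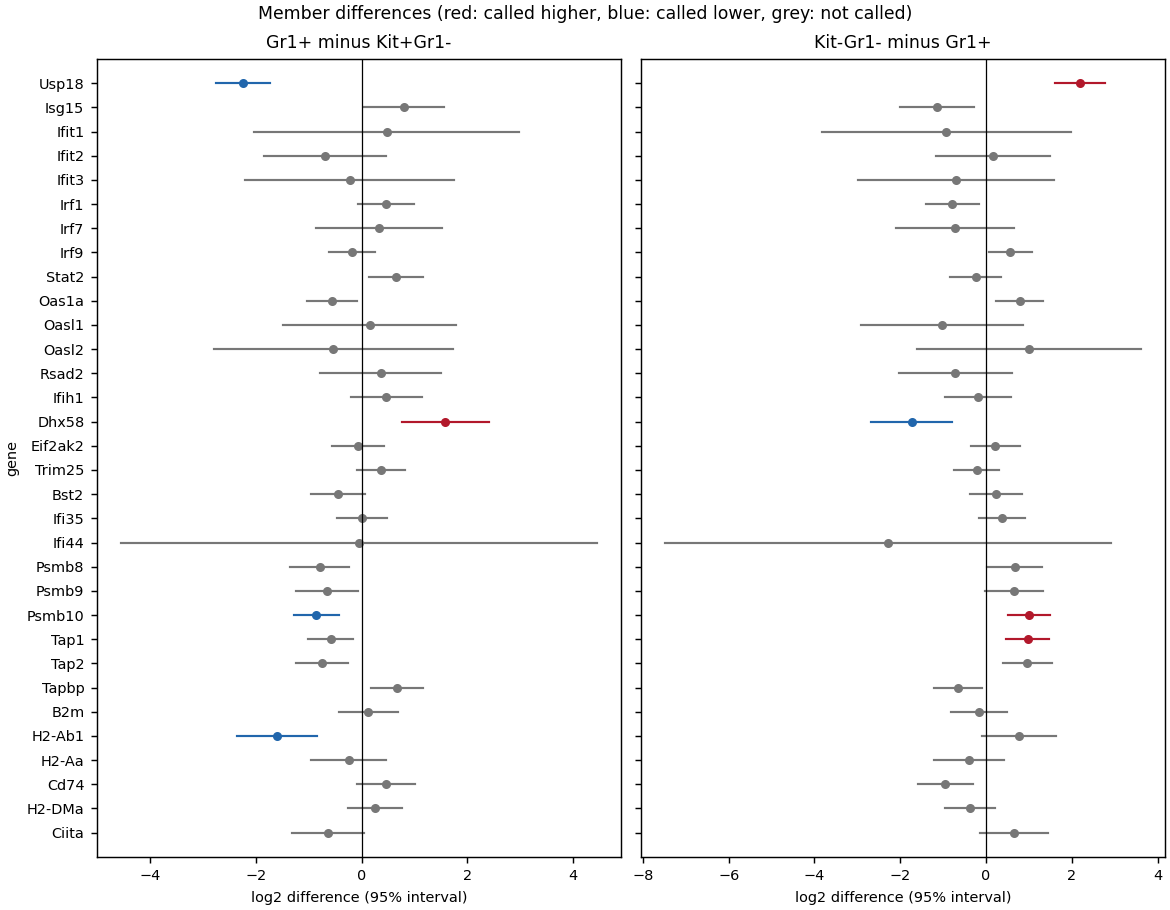
Difference and 95% interval of each of the 32 genes for Gr1+ minus Kit+Gr1- and for Kit-Gr1- minus Gr1+, on the log2 scale; red was called higher, blue called lower and grey not called. The intervals of Ifi44, Ifit1, Oasl2 and Ifit3 are the widest, Usp18 is called in both panels at -2.24 and 2.19, and the 2 panels share the Gr1+ arrays.

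Class II genes were led by H2-Ab1, the beta chain of the I-A molecule. Its level was 0.51, -0.32 and -1.35 in Sca1hi, -0.86, -1.47 and -1.33 in Sca1lo, -1.89, -1.59 and -1.43 in Kit-Gr1- and -1.89, -2.81 and -2.52 in Gr1+. On the probe used for the gene, every Gr1+ array lay below every Kit+Gr1- array. The Kit-Gr1- arrays lay between on that probe, reaching into the Sca1lo values. H2-Ab1 was 3.03-fold lower in Gr1+ than in Kit+Gr1- (difference -1.60 ± 0.35, interval -2.35 to -0.85, adjusted p = 0.012), with -1.71, -1.34 and -2.19 within slides 1, 2 and 3. Its other 2 probes gave smaller differences, -0.83 and -0.72, and with the mean of the probes the difference of -1.05 was not called (adjusted p = 0.0679). The call was also lost without Gr1+ replicate 2 (-1.40, adjusted p = 0.102), with array median scaling (-1.58, adjusted p = 0.161) and with quantile normalization (-1.57, adjusted p = 0.0635).

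The partner chain and the accessory proteins of class II were not called. H2-Aa, the alpha chain, gave -0.24 ± 0.33, and -0.72 with its other probe. Cd74, the invariant chain that guards the class II groove, was at -0.34 ± 0.34 (SD, n = 3) in Sca1hi, -1.07 ± 0.15 in Sca1lo, -1.19 ± 0.34 in Kit-Gr1- and -0.25 ± 0.59 in Gr1+. Its highest fractions were thus Sca1hi and Gr1+, and its difference of 0.46 ± 0.26 from Kit+Gr1- was not called (adjusted p = 0.477). H2-DMa, part of the molecule that exchanges peptides, gave 0.25 ± 0.24, and Ciita, the coactivator of class II transcription, -0.63 ± 0.31 (adjusted p = 0.369). The estimates for Ciita and H2-Ab1 had the same sign, and those for Cd74 and H2-DMa the other. The summed level of 9 dendritic cell markers was 3.50 to 3.74 in Gr1+ and 3.69 to 4.40 in Kit+Gr1-, with 0 called. Bst2, which is also in the interferon list, was alone at 3.08 to 3.41 in Gr1+ and 3.26 to 4.18 in Kit+Gr1-. It thus made up most of that sum, which says little about the other dendritic markers. The summed level of 7 B cell markers was 0.25 to 0.70 against 0.19 to 1.43, with 0 called (1, Cd79b, with the replicate number as a block). The part of either in the class II values was not tested.

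The second comparison sets Kit-Gr1- against Gr1+. It uses the same Gr1+ arrays as the first, so its values are not independent of those above. Of the 32 genes, 4 were called, where 5.52% of all genes were: Usp18, Psmb10 and Tap1 were higher in Kit-Gr1- (2.7% of all genes) and Dhx58 was lower (2.81% of all genes). Arrays did not overlap for 14 of the 32, 9 higher and 5 lower in Kit-Gr1-, where they did not overlap for 27.8% of all genes, 13.7% higher and 14.1% lower. Usp18 was 4.55-fold higher (2.19 ± 0.27, interval 1.60 to 2.77, adjusted p = 0.00031), with 1.74, 2.78 and 2.04 within slides, and it was called in all 25 alternative fits. Those that left out a Kit+Gr1- array could not move this difference, only its error.

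Tap1 read 0.58, 0.43 and 0.90 on the Kit-Gr1- arrays, above each of its Gr1+ values. It was 1.95-fold higher (0.97 ± 0.23, interval 0.47 to 1.47, adjusted p = 0.0272), with 1.13, 0.72 and 1.05 within slides. Psmb10 was 2.00-fold higher (1.00 ± 0.23, interval 0.50 to 1.50, adjusted p = 0.0221), with 0.98, 1.04 and 0.99 within slides. Both genes were higher in Kit-Gr1- on each of the 3 slides. Both calls were lost without any 1 of the Kit-Gr1- arrays (Tap1 at 1.00, 1.07 and 0.83, adjusted p = 0.0816, 0.0501 and 0.144; Psmb10 at 1.04, 1.05 and 0.92, adjusted p = 0.0651, 0.0616 and 0.113). They were also lost without Gr1+ replicate 1 (0.85 and 0.98, adjusted p = 0.103 and 0.079) or Gr1+ replicate 2 (0.99 and 0.93, adjusted p = 0.103 and 0.128), with array median scaling (1.27 and 1.30, adjusted p = 0.337 and 0.404), with all 14 arrays fitted (adjusted p = 0.37 and 0.849) and without a trend (adjusted p = 0.0723 and 0.0531). On the deposited values Tap1 was not called (0.93, adjusted p = 0.0604).

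Dhx58 was 3.32-fold lower in Kit-Gr1- than in Gr1+ (difference -1.73 ± 0.44, interval -2.68 to -0.78, adjusted p = 0.036), with -1.25, -2.16 and -1.78 within slides. It was kept in 4 of the 12 fits that left out 1 array, and lost without each Sca1lo array (-1.73 each time, adjusted p = 0.0561, 0.0535 and 0.0515), each Kit-Gr1- array (-1.67, -1.64 and -1.89, adjusted p = 0.129, 0.128 and 0.077), Gr1+ replicate 2 (-1.62, adjusted p = 0.171) and Gr1+ replicate 3 (-1.54, adjusted p = 0.108). It was also lost with array median scaling (-1.43, adjusted p = 0.0543), on the deposited values (-1.77, adjusted p = 0.173), with all 14 arrays fitted (adjusted p = 0.179) and without a trend (adjusted p = 0.0827).

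Among the genes whose arrays did not overlap but that were not called, Tap2 was 0.96 ± 0.26 higher in Kit-Gr1- (adjusted p = 0.0506), at 3.07, 2.68 and 3.44 against 1.73, 1.93 and 2.64 in Gr1+. Oas1a differed by 0.78 ± 0.25 (adjusted p = 0.106) and Psmb8 by 0.66 ± 0.29 (adjusted p = 0.302). These share the sign of Usp18 and Tap1. On the other side, Cd74 differed by -0.95 ± 0.30 (adjusted p = 0.0925), Isg15 by -1.15 ± 0.40 (adjusted p = 0.14), Irf1 by -0.79 ± 0.28 (adjusted p = 0.16) and Tapbp by -0.65 ± 0.26 (adjusted p = 0.229). Irf9 gave 0.57 ± 0.23 (adjusted p = 0.238), and its other probe gave -0.63, so its direction depended on the probe. With the slide as a block 13 of the 32 were called, where 13.8% of all genes were: Usp18, Psmb8, Psmb9, Psmb10, Tap1, Tap2, Oas1a and Irf9 higher (8.28% of all genes) and Dhx58, Isg15, Irf1, Cd74 and Tapbp lower (5.52%). Without the compressed arrays 7 were called, where 11.1% of all genes were.

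The third comparison sets Kit-Gr1- against Kit+Gr1-. In the limma test 0 of the 32 genes were called, where 0.378% of all genes were, and at an unadjusted p under 0.05 there was 1 (H2-Ab1), against 6.03% of all genes. Adjusted p ran from 0.688 upward. No gene of the set had arrays without overlap, where 5.93% of all genes did. Usp18 differed by -0.05 ± 0.23, with a 95% interval from -0.56 to 0.45, which is narrow beside its difference of -2.24 in Gr1+. H2-Ab1 differed by -0.83 ± 0.35 (interval -1.58 to -0.08), the estimate falling between those of Kit+Gr1- and Gr1+ on the probe used. Its other probes gave -0.92 and -1.28, beside -0.83 and -0.72 for Gr1+ against Kit+Gr1-. On those probes Kit-Gr1- was thus lower than Gr1+. The estimates for Stat2 (0.41 ± 0.24), Irf9 (0.39 ± 0.20, but -0.58 with its other probe), Tap1 (0.38 ± 0.20), Cd74 (-0.49 ± 0.26) and H2-Aa (-0.63 ± 0.33) had 95% intervals that included 0. Of these, Stat2 and Irf9 were called higher under array weights alone. The Kit-Gr1- fraction differed in cell type from Kit+Gr1-: the summed level of 6 erythroid markers was 4.68 to 5.58 against 1.26 to 2.49, with 5 called higher, and the part of this in the values was not tested.

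The last comparison, within the Kit+Gr1- cells, sets Sca1hi against Sca1lo. In limma 0 of the 32 genes and 0% of all genes were called, and at an unadjusted p under 0.05 there was 1 of the 32 (Cd74), against 0.845% of all genes. Cd74 was also the 1 gene whose arrays did not overlap, where 3.2% of all genes did not. It read -0.73, -0.14 and -0.15 in Sca1hi and -1.13, -1.18 and -0.90 in Sca1lo, so that each Sca1hi array was above each Sca1lo array (0.73 ± 0.30, interval 0.09 to 1.37, adjusted p = 1.0). Within slides 1 and 4 the difference was 0.40 and 0.75. H2-Ab1 gave 0.83 ± 0.40 (interval -0.04 to 1.70), with 0.99 and 0.95 from its other probes, but 1.37 and -0.02 within slides 1 and 4, the slide 4 arrays both being compressed. It was called under array weights alone (1.59, adjusted p = 0.0333). Usp18 differed by -0.07 ± 0.27 (interval -0.65 to 0.52). A p that misses the threshold does not show that Sca1hi and Sca1lo are alike in these genes.

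Genes around the set were read from lists of the same pathways, chosen, like the set itself, with earlier results of these data known. Upstream, 4 of 12 interferon ligand and receptor genes were called higher in Gr1+ than in Kit+Gr1- and 0 lower, where 4.36% of all genes were called higher and 3.22% lower. Ifngr1, the ligand-binding chain of the interferon gamma receptor, was at 2.57, 2.84 and 1.91 in Sca1hi, 2.58, 2.94 and 2.60 in Sca1lo, 2.93, 3.11 and 3.53 in Kit-Gr1- and 4.44, 5.45 and 5.07 in Gr1+. Every Gr1+ array was above every other sorted array, and the gene was 5.34-fold higher than in Kit+Gr1- (2.42 ± 0.25, adjusted p = 6.75e-05). Il10rb, a receptor chain shared by interleukin-10 and interferon lambda, was 3.45-fold higher (1.79 ± 0.22, adjusted p = 0.000284). Ifngr2, the other chain of the gamma receptor, was 2.5-fold higher (1.32 ± 0.26, adjusted p = 0.00646), a call lost without Gr1+ replicate 2 (1.16, adjusted p = 0.0655) and with array median scaling (1.35, adjusted p = 0.241). Ifnar2, a chain of the type I receptor, was 1.63-fold higher (0.71 ± 0.18, adjusted p = 0.0263), and lost without any 1 of the Sca1lo arrays (adjusted p = 0.063, 0.0586 and 0.0532), Gr1+ replicate 2 (0.61, adjusted p = 0.194) or Gr1+ replicate 3 (0.69, adjusted p = 0.0793), and without all 3 compressed arrays (0.61, adjusted p = 0.0703). The ligand gene Ifnb1 differed by 0.13 and was not called.

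Of 13 genes of the signal between receptor and promoter, 3 were called higher in Gr1+ (4.36% of all genes) and 0 lower (3.22%): the kinases Jak2 (1.05 ± 0.20, adjusted p = 0.00464) and Tyk2 (0.84 ± 0.18, adjusted p = 0.0117) and the phosphatase Ptpn1, which acts on these kinases (0.93 ± 0.20, adjusted p = 0.0121). The calls of Tyk2 (0.71, adjusted p = 0.114) and Ptpn1 (0.85, adjusted p = 0.101) were lost without Gr1+ replicate 2, and that of Tyk2 without the compressed arrays (0.75, adjusted p = 0.063). With the array median as scale Jak2 was not called (adjusted p = 0.305). The estimates of these genes had the sign of that of Stat2 among the 32, which was not called.

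Of 18 genes that sense nucleic acids, 5 were called higher in Gr1+ (4.36% of all genes), 0 lower (3.22%), and 13 were not called. Zbp1, a sensor of Z-form nucleic acid, was 7.09-fold higher (2.83 ± 0.55, adjusted p = 0.00588). Ikbke, a kinase that activates Irf3 and Irf7, was 6.29-fold higher (2.65 ± 0.29, adjusted p = 8.79e-05), and Unc93b1, which carries nucleic acid receptors to the endosome, 4.57-fold higher (2.19 ± 0.25, adjusted p = 0.000116). Tlr7, an endosomal receptor for single-stranded RNA, was 6.95-fold higher (2.80 ± 0.69, adjusted p = 0.0244), with overlapping arrays. Its call was lost without Sca1hi replicate 1 (2.63, adjusted p = 0.0567), Sca1lo replicate 1 (2.67, adjusted p = 0.0597), Sca1lo replicate 2 (2.61, adjusted p = 0.0586), Gr1+ replicate 2 (2.44, adjusted p = 0.191) or Gr1+ replicate 3 (2.68, adjusted p = 0.0769).

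**Figure D5:**
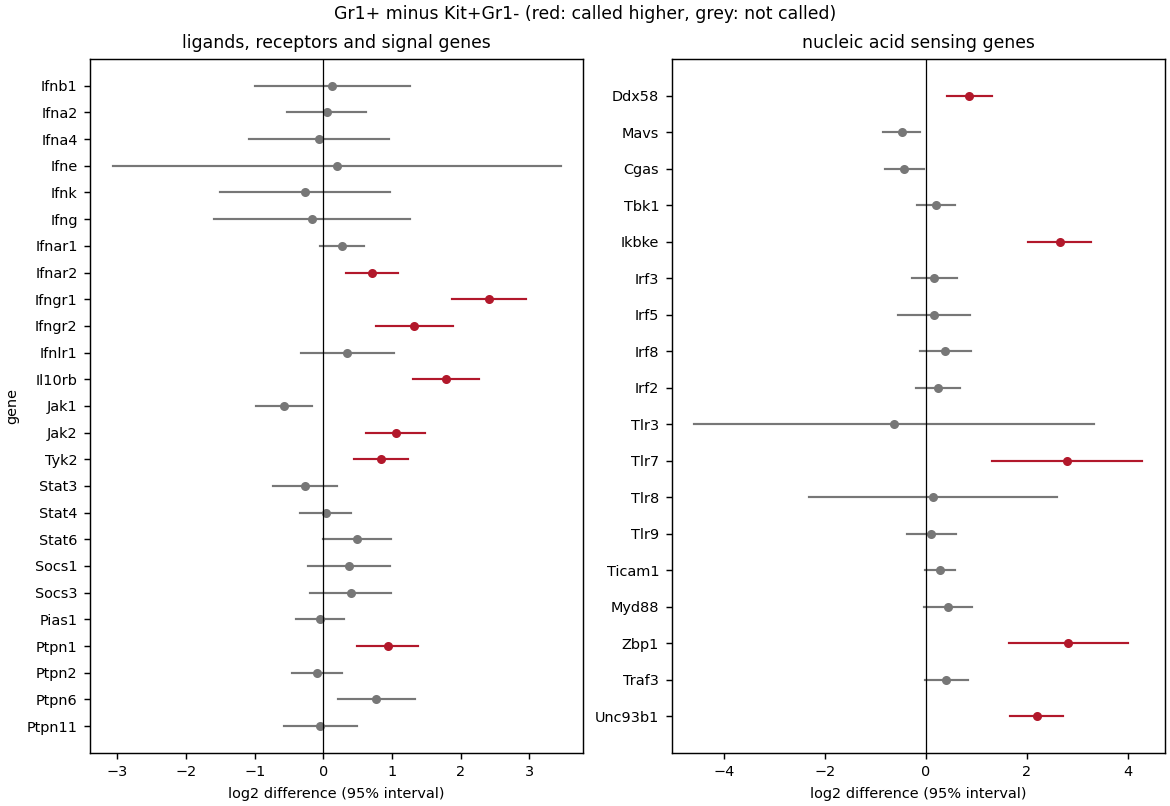
Difference with its 95% interval for Gr1+ minus Kit+Gr1- of the ligand, receptor and signal genes and of the nucleic acid sensing genes, on the log2 scale; red was called higher and grey not called. Ifngr1 at 2.42 leads the receptors, Zbp1 at 2.83 leads the sensors, and 0 genes of these lists were called lower.

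Of 54 other interferon-induced genes, 7 were called higher in Gr1+ (4.36% of all genes) and 2 lower, the latter a share near the 3.22% of all genes. The chemokine gene Cxcl10 was at -1.64, 0.74 and -0.67 on the Gr1+ arrays, and on the Kit+Gr1- arrays it lay between -7.77 and -4.08 and was well above background on 3 of 6. It was called higher in Gr1+ (adjusted p = 0.00153), and its difference of 5.29 ± 0.84 rests on dim values in Kit+Gr1-. Tor3a, of the torsin family, was 3.85-fold higher (1.95 ± 0.22, adjusted p = 0.000131). Samhd1, which depletes the building blocks of DNA, was 2.12-fold higher (1.08 ± 0.17, adjusted p = 0.00168). Ifi204, a DNA sensor, was 2.26-fold lower (-1.17 ± 0.21, adjusted p = 0.00359), but its call was lost with the mean of its probes (-0.30, adjusted p = 0.798) and with array median scaling (adjusted p = 0.255).

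The other presentation genes gave few calls. Of 14 further class I pathway genes, 1 was called higher in Gr1+, a share near the 7.59% of all genes called in either direction. This was Tapbpl, a peptide editor related to tapasin (1.92-fold, 0.94 ± 0.15, adjusted p = 0.00147). Tapbpl is also among the genes called higher in the list of other interferon-induced genes above, so it is counted in both lists. It was not called with array median scaling (adjusted p = 0.284) or on the deposited values (adjusted p = 0.118). Of the 14 core subunits of the constitutive proteasome, which the immunoproteasome subunits partly replace, 0 were called in limma, 2 having an unadjusted p under 0.05. Their differences between Gr1+ and Kit+Gr1- ran from -0.45 (Psma4, ± 0.20) to 0.18, with a median of -0.18, beside -0.79, -0.65 and -0.85 for Psmb8, Psmb9 and Psmb10. Between Kit-Gr1- and Gr1+ the 14 core subunits had a median of 0.46 and ran from 0.08 to 0.76. The 3 immunoproteasome subunits gave 0.66, 0.64 and 1.00. Of the 14, 0 were called in limma and 5 had an unadjusted p under 0.05. The arrays of 10 of the 14 were higher in Kit-Gr1- without overlap, where those of 13.7% of all genes were. For the comparisons with Gr1+, the share of all genes at an unadjusted p under 0.05 is not given here. Of 19 further class II pathway genes, 3 were called higher in Gr1+ (4.36% of all genes) and 0 lower (3.22%). These were Ctss, the protease that trims the invariant chain (6.74-fold, 2.75 ± 0.39, adjusted p = 0.000655), Icosl, a costimulatory ligand (2.55-fold, 1.35 ± 0.27, adjusted p = 0.0075), and H2-DMb1, the partner chain of H2-DMa (2.02-fold, 1.01 ± 0.22, adjusted p = 0.0111). Without Gr1+ replicate 2 Icosl (1.24, adjusted p = 0.0717) and H2-DMb1 (1.02, adjusted p = 0.0659) were not called, and with the mean of its probes Icosl differed by 0.72 (adjusted p = 0.392). The summed neutrophil, eosinophil and macrophage marker levels given above move with all of these calls, and their part was not tested.

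In Kit-Gr1- against Gr1+, which shares the Gr1+ arrays, 2.7% of all genes were called higher and 2.81% lower. Of the pathway lists, 3 of 12 ligand and receptor genes were called lower in Kit-Gr1- (Ifngr1 at -1.80 ± 0.29, Il10rb at -1.85 ± 0.26 and Ifnar2 at -0.80 ± 0.20) and 0 of 13 signal genes were called, with 4 at an unadjusted p under 0.05. Of 18 sensing genes, 4 were lower, among them Tlr7 (13.4-fold, -3.74 ± 0.80, adjusted p = 0.0141), and 1 was higher (Mavs, the adaptor of the cytoplasmic RNA sensors). Of the 54 other induced genes 5 were higher and 6 lower, and of the 19 class II pathway genes 2 were lower (Ctss at -2.98 ± 0.45 and Icosl at -1.92 ± 0.31).

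Between Kit-Gr1- and Kit+Gr1- these lists gave 1 call, where 0.378% of all genes were called. This was Tdrd7, an interferon-induced gene with a tudor domain that restrains virus-induced autophagy. It was at 1.21, 0.82 and 0.63 in Sca1hi, 1.69, 1.39 and 1.31 in Sca1lo, 3.07, 2.15 and 2.69 in Kit-Gr1- and 1.39, 1.53 and 1.39 in Gr1+. The Kit-Gr1- arrays were above all others, by 2.75-fold over Kit+Gr1- (1.46 ± 0.20, adjusted p = 0.00729). The call was lost without Kit-Gr1- replicate 1 (1.24, adjusted p = 0.0512) or replicate 3 (1.43, adjusted p = 0.0707). In limma, 0 genes of any of these lists were called between Sca1hi and Sca1lo, where 0% of all genes were. In the same test 2 of the 54 other induced genes had an unadjusted p under 0.05, against 0.845% of all genes.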

How the data were processed

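The 14 arrays were scanned and read with Agilent Feature Extraction 10.1.1.1, per the file headers, and the scanner files as deposited hold a processed intensity for every spot, background-subtracted and detrended. The deposited series matrix holds the log2 of that processed signal (largest difference 5e-09), unscaled between arrays and not centred. Control spots were left out, leaving 43379 spots and 41174 probes, and spots of a probe were averaged. Of these probes, 23374 had a gene symbol through a RefSeq table (GRCm38.p6, used for names) and 17800 had none. log2 intensity minus each array's 75th percentile was fitted in limma 3.58.1 (R 4.3.3; lmFit, eBayes with a trend, 8 residual degrees of freedom) to the 12 sorted arrays in 4 groups. A probe was kept (38894 were) if 3 or more of the 12 arrays read it well above background, and a gene was represented by its brightest kept probe on average. The 2 unfractionated arrays entered an alternative alone. The 26 alternatives covered scaling, background, filter, probe choice, arrays, blocks, array weights, trend and call rule.

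Slide numbers come from the array positions. Slide 1 held replicate 1 of each fraction; slide 2 held Sca1lo, Kit-Gr1- and Gr1+ replicate 2; slide 3 held Sca1hi replicate 2 and replicate 3 of Kit-Gr1- and Gr1+; slide 4 held replicate 3 of Sca1hi and Sca1lo. A within-slide value uses the Kit+Gr1- arrays of that slide. The labels do not say that replicate numbers pair the fractions. By the correlation of deviations from the group means, same-numbered arrays of Sca1hi, Sca1lo and Gr1+ went together (9 pairs, 0.61 to 0.86). Those with Kit-Gr1- did not (9 pairs, -0.30 to 0.18). Replicate 3 of Sca1hi, Sca1lo and Gr1+ is also the compressed array of each, so pairing and compression cannot be told apart. Arrays of different number correlated from -0.84 to 0.62. Normexp used the median spot signal. Array weights were estimated gene by gene. The genes of the set, the pathway and marker lists were chosen with earlier results of these data known. Genes of the set called in a comparison are given in full, and from each pathway list up to 4 called genes with the largest difference. A summed marker level is the log2 of the summed signals of the list. The number of arrays limits the precision. A gene of the signal list is not reported here. The scripts were tested on simulated data.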

Additional observations from a re-analysis of the deposited data

How the results depend on the processing

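None of the 32 genes changed sign and call under any of the 26 alternatives. Neither did any pathway gene in the comparison it was picked for. These genes were picked for a large difference in these same data, so such a change was unlikely beforehand. Kit, Ly6a, Ly6c1, Mavs, Ifnb1 and Cd79b were not part of this check. Among the 32 genes, 46 values lost a call and 88 gained one, 2958 kept direction and side of the threshold, and 220, not called in either fit, changed sign. Counts moved more. For Gr1+ against Kit+Gr1-, 4 of the 32 genes were called, and 2 with array median scaling, 8 with quantile normalization, 9 on the deposited values, 2 with all 14 arrays fitted, 8 without the compressed arrays, 11 with slide as a block, 14 with array weights, and 1 to 9 when 1 array was left out. Over all genes the 2371 calls became 697, 4119, 701 (14 arrays), 4180 (without compressed arrays), 5167 (slide), 6749 (weights), 1354 with a 2-fold rule, and 979 to 4390 with 1 array left out. For Kit-Gr1- against Gr1+ the 4 calls became 1, 8, 1 (14 arrays), 7 (without compressed arrays), 13 (slide), 13 (weights), 1 without a trend, and 1 to 9 with 1 array left out; over all genes 1724 became 561, 2876, 539, 3483, 4313, 5666, 1074, and 754 to 3653. For Kit-Gr1- against Kit+Gr1- the 0 calls became 3 with array weights (H2-Ab1, Stat2 and Irf9) and stayed 0 in the leave-one-out fits; over all genes 118 became 44, 231, 22 (14 arrays), 279 (slide), 2274 (weights), 28 without a trend, and 26 to 241. For Sca1hi against Sca1lo the 0 calls became 1 with array weights and stayed 0 in the leave-one-out fits; over all genes 0 became 3 (slide), 14 (weights) and 0 to 1. Without Gr1+ replicate 2, Usp18 alone was called in both comparisons with Gr1+. Without Sca1hi replicate 3, the sorted array with the narrowest range, 9 genes were called in each. The cause of these changes was not tested. Genes near background on most arrays, such as Ifi44, limit what these arrays can show.

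Same-numbered arrays correlated in their deviations at a median of 0.40 (18 pairs) and arrays of different number at -0.09 (36 pairs); pairs with Kit-Gr1- lay between -0.30 and 0.18, so the pairing holds at most for the other fractions. With the number as a replicate block, 5 genes of the set were called for Gr1+ against Kit+Gr1-, Stat2 being added (adjusted p = 0.0221), and 3073 genes in all. For Kit-Gr1- against Gr1+, where the numbers did not pair, 8 were called, with Oas1a (adjusted p = 0.0294), Tap2 (0.0381), Cd74 (0.0233) and Isg15 (0.044) added, and 2351 genes in all. Over all genes 346 were called for Kit-Gr1- against Kit+Gr1- and 2 for Sca1hi against Sca1lo, with 0 of the set in both. The block changed no other call of the set.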

Other observations

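On the unfractionated arrays, replicate 2 gave levels of 4.70 for Psmb8, 3.71 for Psmb9, 4.54 for Psmb10, 5.44 for B2m and 1.14 for Cd74, where Cd74 lay above its level on every sorted array (highest 0.39, Gr1+ replicate 3). Replicate 1, whose signal range was the narrowest, gave 1.84, 0.95, 2.28, 1.78 and 0.07 for the same genes, and 0.64 for Ifi44 against -7.61 in replicate 2. H2-Ab1 was at -1.98 and -1.85 and Dhx58 at 0.37 and -1.33.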
